A study of Artemia parthenogenetic lineage with 6 samples.

Results

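Peaks of open chromatin at divergent gene pairs were examined in *A. parthenogenetica* cysts. A divergent pair was a minus-strand gene followed on the same contig by a plus-strand gene, with 0 to 2000 bp between both starts, so that the genes are read away from each other. A peak was taken as a member when it overlapped the interval between both starts, widened by 500 bp on each side. The rule used gene positions and strands and no measured value. It found 143 pairs among the 12010 genes listed, and 130 of 112790 peaks lay at 109 of these pairs.

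The libraries came from ATAC-seq, in which the Tn5 transposase cuts and tags open DNA, so that the read count in a peak follows its accessibility. The ArD_0h group held wild-type cysts in diapause, labelled as untreated, and the ArR_5h group held wild-type cysts 5 h after embryonic diapause termination (EDT), all drawn from a single batch of cysts. Each group had 3 biological replicates. Cysts had been collected in Ebinur Lake, and those of ArR_5h were rehydrated ice-cold in artificial seawater of 30‰ and reactivated under continuous light. The paper describes drying and refrigeration to break diapause before reactivation. If only ArR_5h had that treatment, its effect and that of the 5 h cannot be told apart. The labels give 28, 29 and 30 °C for ArR_5h replicates 1, 2 and 3, whereas the protocol text gives 28 °C throughout, and the difference could not be resolved. Whole cysts were used, so a site open in more nuclei and a site more open in each nucleus cannot be told apart. The table pairs gene IDs with no names, so no marker of a cyst or cell type was checked. Reads were mapped to the assembly of another species, *A. franciscana*, and all coordinates are those of the authors' table.

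Divergent genes can share a bidirectional promoter, a nucleosome-poor stretch between both starts from which RNA polymerase II transcribes in opposite directions. In many animals such shared promoters are common at genes active in most cells, and the stretch between the starts is often kept open as one region. *Artemia* cysts are encysted gastrulae, which arrest development and metabolism in diapause and resume both after EDT.

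The ArD_0h replicate 1 library stood apart at gene starts, and the results that rest on it are given with and without it. Its CPM (counts scaled to the same total of counts in peaks per library, with TMM factors) was the lowest of the 6 libraries at 115 of 130 members (88.5%), at 86.7% of peaks over a single gene start and at 28.4% of all tested peaks. Counts in peaks ranged from 5239170 to 9366963 per library and made up 10.6% of the library total in ArD_0h replicate 1, against 12.7% to 14.8% in the other 5 libraries.

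Divergent pairs were close together and mostly held a single peak. The gap between both starts ranged from 34 to 1989 bp with a median of 309 bp, and it was at most 500 bp in 96 pairs. The pairs lay on 129 of 2100 contigs and comprised 285 genes, 2.37% of those listed. Of the 143 pairs, 88 held 1 peak, 20 held 2 peaks, 1 held 3 peaks and 34 held none. One of the peaks lay at 2 pairs that shared the minus-strand gene evm.TU.ctg194.3. The 34 pairs without a peak had a median gap of 613.5 bp, against 254 bp in the pairs with a peak. Among pairs with a gap of at most 500 bp, 81 of 96 (84.4%) held a peak. Neighbouring genes in other orientations held peaks less frequently at the same gap limit: 57 of 223 tandem pairs (25.6%), whose genes lie on the same strand, and 3 of 43 convergent pairs (6.98%), whose genes end toward each other. These shares describe the peak list and were not tested. Every gene in the table was listed as the nearest gene of at least 1 peak, so genes without any peak do not enter these pairs.

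Most members lay over gene starts, and 65 of 130 covered both starts of a pair. A further 21 lay over the start of the minus-strand gene only, 17 over that of the plus-strand gene only, 1 inside the gap and 26 inside a gene near its start. The 65 spanning peaks were 325 to 1921 bp wide and bridged gaps of 34 to 558 bp, with a median gap of 220 bp. They reached a median of 407 bp into the minus-strand gene and 486 bp into the plus-strand gene, and the reach into the plus-strand gene was the longer in 39 of 65. In 57 of 65 spanning peaks at least 1 summit, the point of highest signal in a peak, lay between both starts. The middle one of the summits lay a median of 57.5 bp from the centre of the gap. All 65 spanning peaks were assigned to the minus-strand gene in the authors' table and none to the plus-strand gene, so a list of genes by assigned peak leaves out the plus-strand partner at these sites. Members had a median width of 858 bp, against 754 bp for peaks over a single start outside divergent pairs and 328 bp for all peaks.

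**Figure D1:**
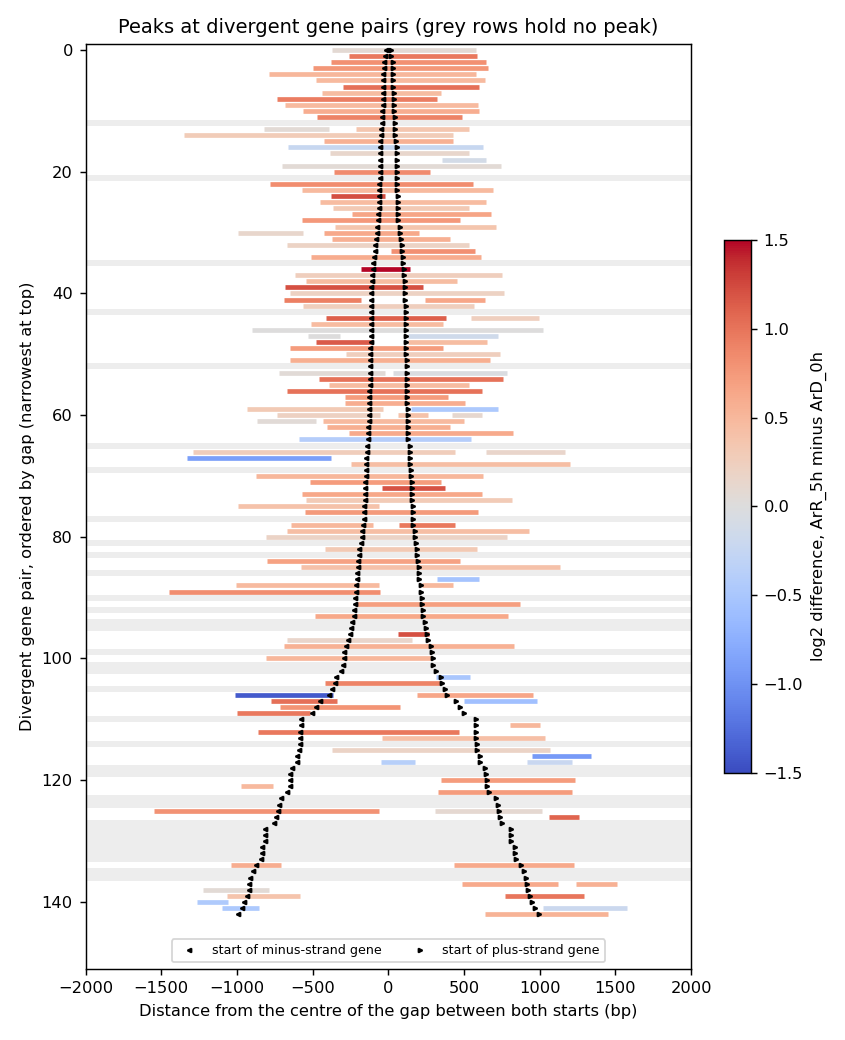
Each row is 1 of the 143 divergent pairs, ordered by gap, with distance from the centre of the gap in bp on the x axis, arrowheads at both starts, and peaks as bars coloured by log2 difference (ArR_5h minus ArD_0h). Peaks bridge both starts in the upper rows, where gaps are narrow, and split to either side in the lower rows; the 34 grey rows hold no peak.

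The form of the peaks changed with the gap. Of the 30 pairs with a gap of 34 to 149 bp, 28 (93.3%) held a peak, and 26 of their 29 peaks covered both starts. Of the 41 pairs at 152 to 299 bp, 36 (87.8%) held a peak, and 28 of their 47 peaks covered both starts. At 309 to 496 bp, 17 of 25 pairs (68.0%) held a peak and 10 of 19 peaks covered both starts, and at 512 to 953 bp 9 of 13 pairs (69.2%) held a peak and 1 of 11 peaks did. In the widest class, 1006 to 1989 bp, 19 of 34 pairs (55.9%) held a peak and none of 24 peaks covered both starts. A peak can cover both starts only where it is wider than the gap, so this order follows in part from the geometry. The mean CPM per kb of peak had medians of 24.1, 22.4, 20.7, 18.2 and 20.2 in these classes, from narrow to wide. It was highest in the narrowest class, and the difference between classes was not tested.

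The members were more accessible than most peaks. Their median CPM in the ArD_0h libraries was 7.23, 18.4 and 19.4, in the order of replicates 1, 2 and 3. For ArR_5h it was 24.5, 22.3 and 20.1, and values by library are given in this order throughout. The 5 libraries other than ArD_0h replicate 1 overlapped closely in the plot of the members' levels by library. The median CPM over all tested peaks was between 5.29 and 5.56 in every library. Per kb of peak, the median of the members' mean CPM was 22.4, against 20.8 for peaks over a single start and 16.6 for all tested peaks. The lowest member had 9.84 CPM per kb and the highest 46.8.

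**Figure D2:**
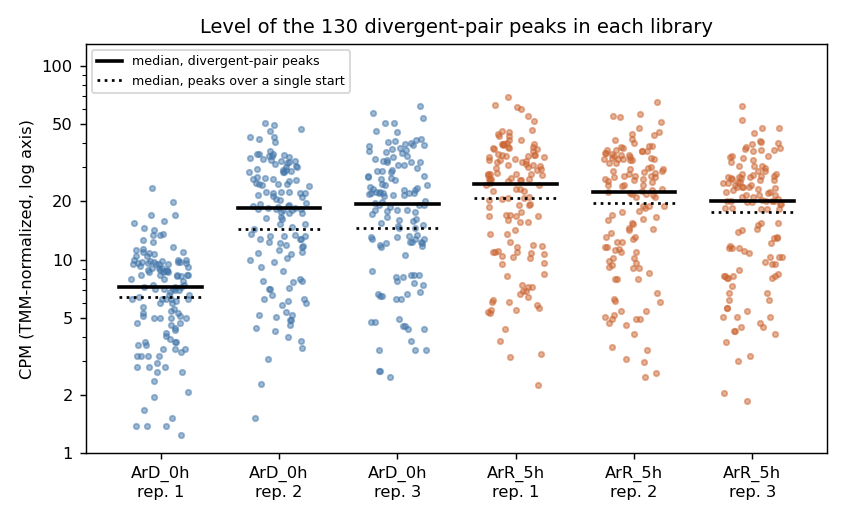
CPM on a log axis of the 130 members (points) in each of the 6 libraries, with the median of the members (solid line) and of peaks over a single gene start (dotted line). The members' median is 7.23 in ArD_0h replicate 1 and 18.4 to 24.5 in the other libraries.

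Of the counts in peaks of each library, the members took 0.106%, 0.257% and 0.277% in ArD_0h replicates 1, 2 and 3. The corresponding shares for ArR_5h were 0.2998%, 0.286% and 0.254%. Replicates 2 and 3 of ArD_0h lay at or near the ArR_5h values, and replicate 1 of ArD_0h lay far below all of them. Averaged by group, this was 0.213% ± 0.0933 (SD, n = 3) for ArD_0h, against 0.280% ± 0.0236 (SD, n = 3) for ArR_5h. The difference was not larger than the spread between replicates (p = 0.3 in an exact 2-sided permutation test, which cannot go below 0.1). It was 0.0662 percentage points with all libraries and 0.0127 without ArD_0h replicate 1 (exact permutation p = 0.6).

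In the comparison of ArR_5h with ArD_0h, 12 of the 130 members (9.23%) were called higher in ArR_5h and 1 (0.769%) lower. A call required a log2 difference above 1 in size together with an adjusted p no larger than 0.05, from the quasi-likelihood test of edgeR adjusted by Benjamini-Hochberg over every peak tested. Over all 112211 tested peaks, 14.5% were called higher and 15.2% lower (29.7% in either direction), and in 25.7% all ArR_5h libraries lay below all ArD_0h libraries, so the share of members called lower was far below the background. The share called higher was below it with all 6 libraries but not in every fit: without ArD_0h replicate 3 it was 23.1%, against 17.2% of all tested peaks. The log2 differences nevertheless leaned to one side: 113 of 130 members (86.9%) were above 0, against 47.9% of all tested peaks. The median log2 difference was 0.48, with quartiles of 0.19 and 0.73 and a range from -1.40 to 1.93, against a median of -0.07 over all tested peaks. In 46 members (35.4%) all ArR_5h libraries lay above all ArD_0h libraries, against 26.4% of all tested peaks, and in 3 members they lay below. Peaks over a single start outside divergent pairs leaned further the same way. Of these, 91.2% were above 0, and in 55.2% all ArR_5h libraries lay above all ArD_0h libraries.

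The count of 46 members with all ArR_5h libraries above all ArD_0h libraries was also 46 with ArD_0h replicates 2 and 3 alone. Leaving out a library makes such separation easier, and the share of all tested peaks was not counted without ArD_0h replicate 1. Whether the members' share still exceeds that of all tested peaks there was therefore not tested. The size of the members' lean, however, rested largely on ArD_0h replicate 1. Without it, 3 members (2.31%) were called higher and 1 lower, against 10.8% and 12.6% of all tested peaks, and the median log2 difference of the members was 0.13. In 43 of the 130 members, the mean of ArD_0h replicates 2 and 3 lay above the mean of ArR_5h. With the trend of each library on mean level removed, 6 members (4.6%) were called higher and 3 (2.31%) lower, with a median of 0.21. In that fit 13.6% of all tested peaks were called higher and 13.8% lower. Scaling by library totals shifted the median of all tested peaks by 0.16 on the log2 scale, and the members' median stood 0.52 above it, against 0.54 with TMM.

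Members over a start and members over none were described separately, with no test of the difference. The 103 members over at least 1 start had a median log2 difference of 0.54, and 11 of them (10.7%) were called higher and 1 lower. The 27 members over no start had a median of 0.07, and 1 (3.70%) was called higher. Without ArD_0h replicate 1 the medians were 0.16 and -0.23, and the order of the called shares turned, with 2 of 103 (1.94%) over a start and 1 of 27 (3.70%) over no start called higher. Of the 65 spanning peaks, 63 had a log2 difference above 0, with a median of 0.51, and 6 were called higher and none lower. The medians were 0.51 for the 21 peaks over the minus-strand start only, with 3 called higher and 1 lower, and 0.63 for the 17 over the plus-strand start only, with 2 called higher. The medians of these 3 classes were 0.16, 0.18 and 0.23 without ArD_0h replicate 1, with 1, 1 and 0 called higher.

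The spanning peaks were also the most accessible members, with a median CPM of 25.2. As mean log2 CPM (prior count of 2), they lay above the other members by 0.82, 1.28 and 1.38 in ArD_0h replicates 1, 2 and 3 and by 1.43, 1.47 and 1.42 in ArR_5h. The excess was higher in all 3 ArR_5h libraries than in any ArD_0h library, by 0.28 on average (p = 0.1 in the exact permutation test, its smallest possible value). Without ArD_0h replicate 1 the difference was 0.11 (exact permutation p = 0.2), and with the trend on level removed it was 0.10 (exact permutation p = 0.3). Spanning peaks were also wider, with a median of 1093 bp, so that their excess per kb was smaller (24.1 CPM per kb, against 20.1 for the other members).

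Peaks of narrow pairs, with a gap of at most 500 bp, lay above those of wider pairs by 0.40, 0.78 and 0.90 in ArD_0h replicates 1, 2 and 3 and by 0.88, 0.88 and 0.87 in ArR_5h, on the same scale. Replicate 3 of ArD_0h lay above all ArR_5h libraries and replicates 1 and 2 lay below them. The mean difference between the groups was 0.18 (exact permutation test, 2-sided p = 0.4), and it was 0.03 without ArD_0h replicate 1 and 0.05 with the trend on level removed. Of the 95 peaks of narrow pairs, 9 (9.47%) were called higher and none lower, and of the 35 peaks of wide pairs, 3 (8.57%) were called higher and 1 lower. The counts called higher fell to 2 of 95 (2.11%) and 1 of 35 (2.86%) without ArD_0h replicate 1, with median log2 differences of 0.14 and 0.13.

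The most similar peaks in the table were the 3449 tested peaks that overlapped exactly 1 gene start outside divergent pairs. Of these, 966 (28.0%) were called higher and 33 (0.957%) lower, with a median log2 difference of 0.71. The members' mean log2 CPM exceeded that of the single-start peaks by 0.04, 0.24 and 0.30 in ArD_0h replicates 1, 2 and 3 and by 0.00 in ArR_5h replicate 1, and it lay below it in ArR_5h replicates 2 and 3 (-0.03 and -0.04). All 3 ArD_0h libraries were above all 3 ArR_5h libraries, with a mean difference of -0.22 (p = 0.1 in the exact permutation test, its smallest possible value). Leaving out each library in turn gave -0.29 to -0.17. Members over no start enter this contrast, whereas all single-start peaks lie over a start. With only the members over a start, an alternative chosen after the data were seen, the difference was -0.11 (exact permutation p = 0.4), and with only the spanning members it was -0.08 (exact permutation p = 0.7). Against the 1302 single-start peaks at least 858 bp wide, it was -0.16 (exact permutation p = 0.1), and 19.5% of these were called higher. The members were not cut by width there, so the sets were not matched in width. The alternatives with spanning members and with wide single-start peaks were also chosen after the data were seen. Without ArD_0h replicate 1, 484 single-start peaks (14.0%) were called higher, against 3 members (2.31%).

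**Figure D3:**
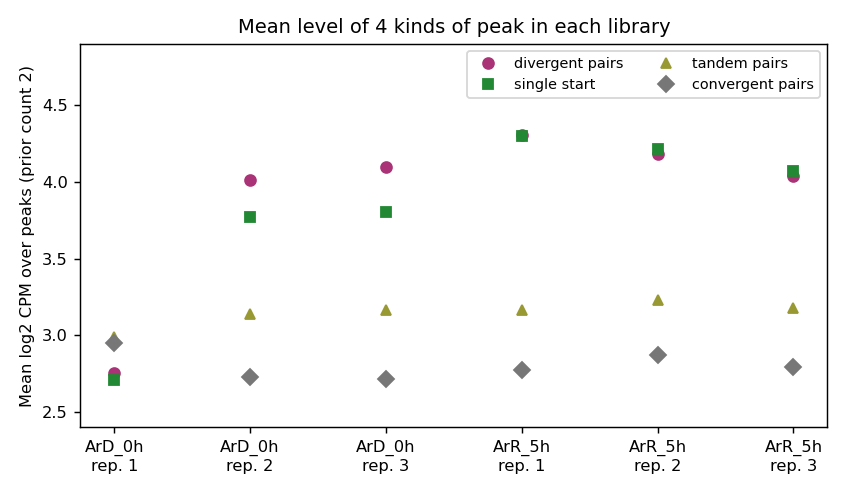
Mean log2 CPM (prior count of 2) in each library over the peaks at divergent pairs, over a single start, at tandem pairs and at convergent pairs. Members lie above single-start peaks in ArD_0h replicates 2 and 3 and at or slightly below them in ArR_5h, and in ArD_0h replicate 1 both kinds lie below the tandem and convergent peaks.

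Peaks at tandem and convergent pairs were set against the members because they share the gap between neighbouring genes, with 1 start or no start in it. Of the 112 tandem peaks, 19 (17.0%) were called higher and 13 (11.6%) lower, with a median log2 difference of 0.00. Of the 34 convergent peaks, 4 (11.8%) were called higher and 3 (8.82%) lower, with a median of 0.06. The members' mean log2 CPM differed from that of tandem peaks by -0.24, 0.87 and 0.94 in ArD_0h replicates 1, 2 and 3 and by 1.14, 0.95 and 0.86 in ArR_5h. Replicates 2 and 3 of ArD_0h overlapped ArR_5h, and the mean difference of 0.46 was not larger than the spread between replicates (exact permutation test, 2-sided p = 0.4). It was 0.08 without ArD_0h replicate 1. Against convergent peaks the values were -0.19, 1.28 and 1.39 in ArD_0h and 1.53, 1.31 and 1.25 in ArR_5h. On average the groups differed by 0.54 (exact permutation p = 0.5), by 0.03 without ArD_0h replicate 1 and by 0.31 with the trend on level removed.

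**Figure D4:**
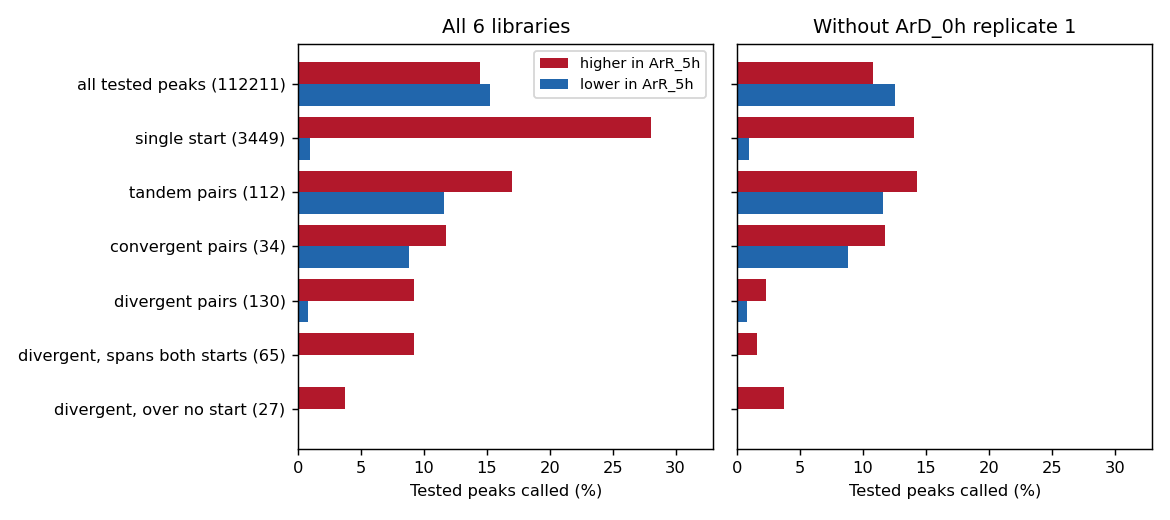
Percent of tested peaks called higher (red) or lower (blue) in ArR_5h for each kind of peak, with the number of peaks in brackets, in the fit of all 6 libraries (left) and without ArD_0h replicate 1 (right). The members' share called higher falls from 9.23% to 2.31%, and that of single-start peaks from 28.0% to 14.0%.

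The 12 members called higher lay at 12 pairs on 12 contigs. Gene IDs are given here without their shared prefix evm.TU, minus-strand gene first. The peak of highest level per kb among them lay on ctg62 from 323487 to 324398 and covered both starts of ctg62.4 and ctg62.5, which are 224 bp apart. Its CPM was 10.02, 34.9 and 32.3 in ArD_0h and 61.6, 55.1 and 62.2 in ArR_5h. The groups did not overlap, and ArD_0h replicate 1 lay far below the other ArD_0h libraries. The log2 difference was 1.22 ± 0.34 (SE), with an adjusted p of 0.00789 by edgeR. In the study's annotation ctg62.4 carries terms of the negative regulation of signal transduction.

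At ctg14.16 and ctg14.17, with a gap of 230 bp, a spanning peak (ctg14, 1188121 to 1188918) had a CPM of 9.46, 10.7 and 16.2 in ArD_0h and 26.1, 25.3 and 27.6 in ArR_5h. Here ArD_0h replicates 1 and 2 were alike and all ArD_0h libraries lay well below ArR_5h, with a log2 difference of 1.13 ± 0.30 (SE; adjusted p = 0.00543 by edgeR). At ctg79.14 and ctg79.16, only 67 bp apart, the spanning peak (ctg79, 1388373 to 1389272) had a CPM of 9.60, 20.3 and 25.7 in ArD_0h and 39.2, 36.6 and 36.7 in ArR_5h. The ArR_5h libraries were nearly equal there and the ArD_0h libraries spread widely, with a log2 difference of 1.02 ± 0.32 (SE; adjusted p = 0.0149 by edgeR).

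The spanning peak of ctg742.22 and ctg742.23 (ctg742, 1223375 to 1224591; gap 245 bp) had a CPM of 10.7, 35.3 and 41.4 in ArD_0h and 69.0, 54.3 and 52.9 in ArR_5h. That of ctg166.21 and ctg166.22 (ctg166, 1460320 to 1461605; gap 250 bp) had 9.04, 17.4 and 14.6 in ArD_0h and 34.7, 25.4 and 22.5 in ArR_5h. Both kept the groups apart, with ArR_5h replicate 1 the highest library. Their log2 differences were 1.02 ± 0.35 (SE; adjusted p = 0.0242 by edgeR) and 1.01 ± 0.31 (SE; adjusted p = 0.0133 by edgeR), just past the limit on size. Without ArD_0h replicate 1 none of these 5 peaks passed that limit, with log2 differences of 0.82 at ctg62.4, 0.98 at ctg14.16, 0.71 at ctg79.14, 0.62 at ctg742.22 and 0.78 at ctg166.21, while their adjusted p by edgeR stayed at most 0.00052. Without ArR_5h replicate 1 the call was lost at ctg79.14 (0.99), ctg742.22 (0.88) and ctg166.21 (0.81), and without ArR_5h replicate 2 at ctg79.14 and ctg742.22 (adjusted p = 0.0571 and 0.0664 by edgeR). With the trend on level removed, ctg62.4 stayed called at 1.00, and ctg14.16 (0.77), ctg79.14 (0.72), ctg742.22 (0.81) and ctg166.21 (0.66) were not called.

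The other 7 peaks called higher were of lower level than the median member and are given because the count turns on them, chosen after their values were seen. The widest change was at ctg1197.1 and ctg1197.2, 201 bp apart, whose spanning peak (ctg1197, 84646 to 84970) had a CPM of 1.39, 3.06 and 3.42 in ArD_0h and 10.9, 10.2 and 8.25 in ArR_5h. The lowest ArR_5h library had more than the highest ArD_0h library by a wide margin, and the log2 difference was 1.93 (adjusted p = 0.000318 by edgeR). At ctg279.1 and ctg279.2, 122 bp apart, a peak over the minus-strand start (ctg279, 89583 to 89939) had a CPM of 3.76, 5.35 and 6.46 in ArD_0h and 10.7, 13.1 and 12.2 in ArR_5h, with a log2 difference of 1.22 (adjusted p = 0.00281 by edgeR). These were the only 2 of the 12 that were called under every alternative run. Their log2 differences without ArD_0h replicate 1 were 1.60 and 1.02.

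At ctg485.9 and ctg485.10 a peak inside the plus-strand gene (ctg485, 376238 to 376437) had a CPM of 3.20, 1.53 and 2.66 in ArD_0h and 6.86, 4.60 and 4.31 in ArR_5h. Of the 12 peaks called higher, this was the one in which ArD_0h replicate 1 was the highest and not the lowest library of its group. The log2 difference was 1.10 (adjusted p = 0.0282 by edgeR) and 1.36 without ArD_0h replicate 1, and the call was lost without ArD_0h replicate 2 (0.90), ArR_5h replicate 1 (0.85) or ArR_5h replicate 2 (adjusted p = 0.0594 by edgeR). The remaining 4 lay over a single start of the pairs ctg570.19 and ctg570.20, ctg331.34 and ctg331.35, ctg667.2 and ctg667.3, and ctg284.26 and ctg284.27, with log2 differences of 1.21, 1.20, 1.16 and 1.02. Their CPM was 1.39 to 8.17 in ArD_0h and 5.51 to 17.7 in ArR_5h, and the groups did not overlap at any of them. Without ArD_0h replicate 1 these were 0.85, 0.88, 0.83 and 0.82, and none was called. The call at ctg667.2 was also lost without ArR_5h replicate 1 (0.85), the calls at ctg667.2 and ctg284.26 with the trend on level removed (0.998 and 0.90), and those at ctg570.19 (1.05, adjusted p = 0.0939 by edgeR) and ctg284.26 (0.98) without ArR_5h replicate 2.

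**Figure D5:**
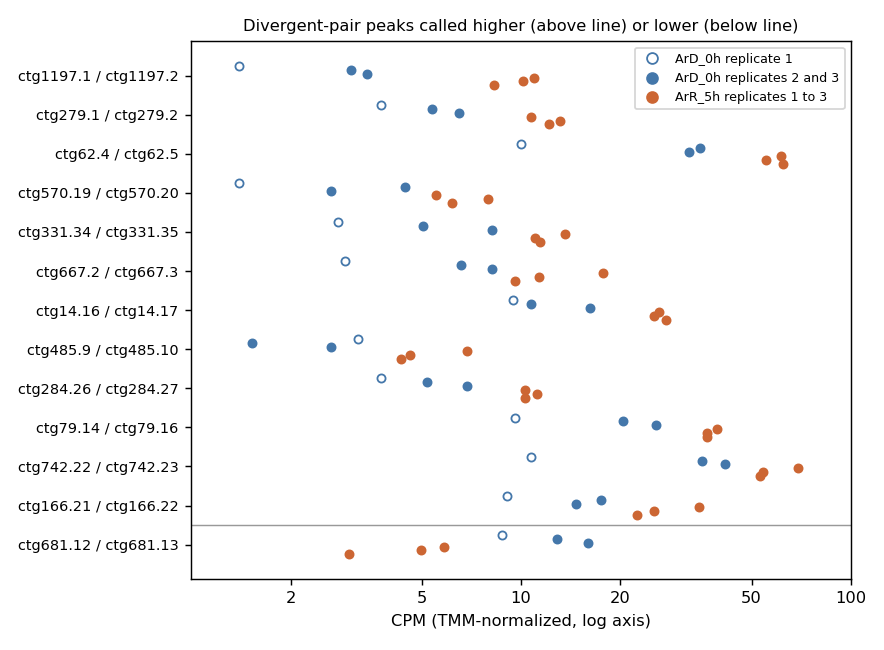
CPM on a log axis in each library at the 12 members called higher and, under the line, the 1 called lower. ArD_0h replicate 1 (open circles) is the lowest library at 11 of the 12 peaks called higher, and at ctg681.12 the ArD_0h libraries have 8.76 to 16.0 CPM against 2.999 to 5.85 in ArR_5h.

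The single member called lower lay over the start of ctg681.12, whose partner ctg681.13 starts 778 bp away. This peak (ctg681, 485403 to 486049) had a CPM of 8.76, 12.8 and 16.0 in ArD_0h and 5.85, 4.96 and 2.999 in ArR_5h. All ArR_5h libraries lay below all ArD_0h libraries, although ArD_0h replicate 1 was again the lowest of its group. The log2 difference was -1.40 ± 0.31 (SE; adjusted p = 0.0017 by edgeR), -1.60 without ArD_0h replicate 1, and it was called under every alternative run. The peak over the start of the partner gene ctg681.13 went the other way in value, with a CPM of 5.56, 9.79 and 10.6 in ArD_0h and 14.3, 14.4 and 11.8 in ArR_5h (log2 difference 0.65, adjusted p = 0.0716 by edgeR). Below the size limit, 2 further members had a negative difference with an adjusted p of at most 0.05 by edgeR, at ctg394.8 and ctg394.9 (-0.90) and at ctg64.13 and ctg64.14 (-0.93). In the positive direction 25 members had such a p, the 12 called among them. The share of all tested peaks at this p limit alone was not counted, so these counts cannot be set against a background.

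The 5 members of highest CPM per kb were, besides those of ctg62.4 (46.8) and ctg742.22 (36.1), a peak over the start of ctg136.7 (34.1) and those at ctg278.12 and ctg278.13 (32.9) and at ctg384.19 and ctg384.20 (32.9). The last of these, over the start of ctg384.19, had a CPM of 9.88, 42.8 and 46.4 in ArD_0h and 62.8, 65.2 and 47.8 in ArR_5h. Its groups did not overlap, but ArD_0h replicate 3 nearly reached the lowest ArR_5h library. The log2 difference was 0.83 (adjusted p = 0.0726 by edgeR), and it was 1.16 and called without ArD_0h replicate 3 (adjusted p = 0.0485 by edgeR). At ctg278.12 the spanning peak had 9.18, 31.96 and 36.3 in ArD_0h and 36.6, 38.3 and 31.9 in ArR_5h, with the groups overlapping (0.47, adjusted p = 0.286 by edgeR). At ctg136.7 the CPM was 3.34, 11.2 and 13.1 in ArD_0h and 15.6, 13.8 and 11.4 in ArR_5h, again overlapping (0.59, adjusted p = 0.168 by edgeR).

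Of the 21 pairs with at least 2 tested peaks, 16 had log2 differences of the same sign, and the range within a pair had a median of 0.29. As 113 of all 130 members (86.9%) were above 0, peaks of different pairs mostly share a sign too. Peaks within pairs were not compared with peaks of different pairs, so the 16 pairs do not show agreement particular to a pair. Peaks of the same pair also share libraries and a stretch of contig, so they are not independent. The range was widest at ctg681.12 and ctg681.13 (2.05). It was next widest at ctg284.26 and ctg284.27, where the peak over the minus-strand start was called higher (1.02) and a peak inside the plus-strand gene had -0.58. No pair held 2 called peaks. The only pair with 3 peaks, ctg928.9 and ctg928.10, had log2 differences of 0.39, 0.21 and 0.11. The pairs ctg604.3 and ctg604.4 (0.36 and 0.07) and ctg325.20 and ctg325.21 (0.63 and 0.14) each held 2.

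Functions were taken from the study's terms for genes that changed in the same direction in its ATAC-seq and RNA-seq. This list was held here in part (567 genes) and included 14 genes of divergent pairs, 10 of them with a term. The study chose that list partly on the ArD_0h libraries, so it is not independent evidence of a direction. Of these genes, 12 were in pairs with a peak, and 3 of their 15 peaks were called higher and none lower, against 14.5% and 15.2% of all tested peaks. Their median log2 difference was 0.75. The 3 were at ctg62.4, ctg1197.1 and ctg279.2, of which the last 2 carry no term. Most genes of divergent pairs were not in the part of that list held here, so the functions that follow cover few of the pairs.

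In the group of transcription or DNA binding, ctg1345.4 carries terms of transcription factor binding, and the peak it shares with ctg1345.3 had a CPM of 9.74, 35.3 and 42.2 in ArD_0h and 31.3, 33.5 and 26.1 in ArR_5h. Replicates 2 and 3 of ArD_0h lay above every ArR_5h library, and the log2 difference was 0.07 (adjusted p = 0.893 by edgeR). The second gene of the group, ctg318.2, carries terms of DNA and ATP binding. Its peak had 3.20, 7.80 and 11.8 in ArD_0h and 17.1, 11.7 and 13.1 in ArR_5h (0.91, adjusted p = 0.0367 by edgeR), short of the size limit. The RNA-binding gene ctg155.9_evm.TU.ctg155.10 had a peak over its start with 9.04, 24.0 and 27.0 in ArD_0h and 40.0, 36.6 and 27.4 in ArR_5h. The lowest ArR_5h library was only just above the highest ArD_0h library (0.80, adjusted p = 0.0604 by edgeR), and the peak was called without ArD_0h replicate 3 (1.08). A peak over the start of its partner ctg155.11 had a log2 difference of 0.11. The gene ctg409.9 was grouped by the word receptor but carries terms of viral envelope, entry into a host cell and phosphotransferase activity. It shared a spanning peak with 7.37, 26.2 and 23.6 in ArD_0h and 32.6, 37.9 and 24.9 in ArR_5h (0.75, adjusted p = 0.0916 by edgeR). The one gene with terms of oxidoreductases and transport, ctg343.15, which also carries terms of mRNA capping, had no peak at its pair.

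At the limit of 2000 bp, the widest pair inside, ctg34.22 and ctg34.23 (1989 bp), had a peak of 7.10, 28.3 and 23.8 CPM in ArD_0h and 27.2, 32.6 and 25.9 in ArR_5h, with a log2 difference of 0.54. The narrowest pair outside, ctg430.8 and ctg430.9 (2050 bp), had a peak of 2.92, 3.67 and 5.51 CPM in ArD_0h and 7.20, 6.38 and 7.31 in ArR_5h, with a log2 difference of 0.80.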

How the data were processed

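ATAC-seq peaks of 6 libraries, 3 per group, were analysed. For its own libraries the paper describes skewer for trimming, BWA for mapping to *A. franciscana*, filtering of low-quality, mitochondrial and duplicate reads, and MACS2 for peaks. The labels name BWA and MACS2. A shift for the Tn5 offset, the counting tool and the annotation release are not given in the sources used here. The deposited counts are whole numbers per merged peak and library. The authors' RPM values are counts with 1 added over a single total per library, within 1% at all 112790 peaks, and served only to recover these totals. Gene positions and strands came from the same table.

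The quasi-likelihood test of edgeR 4.0.16 (R 4.3.3) was run on the counts of all peaks after TMM scaling and filterByExpr, with Benjamini-Hochberg adjusted p-values and no replicate block. It covered 112211 peaks, all 130 members among them. SE is the log2 difference over the root of F. Per-library contrasts of mean log2 CPM were tested by exact permutation over the 6 libraries with scipy 1.17.1 in Python 3.11.15. P-values measure the spread between these libraries, whose separate handling beyond "biological replicates" is not described. The procedure was also run on simulated counts with few changed peaks and no library set apart. That setting differs from these data, so the run is no check on the effect of ArD_0h replicate 1. DESeq2 1.42.0, other scalings and filters, other gap and overlap rules, a replicate block, and fits without each library were alternatives.

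Members, comparison sets and lists were chosen with earlier results of these data known. The rule for named peaks took up to 8 called peaks per direction of at least median level with groups not overlapping (5 higher and none lower met it), the 5 of highest CPM per kb, the 3 pairs with most peaks, pairs with a gene named in the paper (none), the annotated gene of highest CPM per function group, and pairs with calls in both directions (none). As genome sequence was not used here, no peak sequence, motif or GC content is given.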

Additional observations from a re-analysis of the deposited data

How the results depend on the processing

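The count of members called higher was 12. With library totals scaling it was 20 (15.4%, against 18.9% of all tested peaks). With the trend on level removed it was 6 (4.6%, against 13.6%). Leaving out each library in turn gave 3 to 30. The lowest was without ArD_0h replicate 1 (2.31%, against 10.8%) and the highest without ArD_0h replicate 3 (23.1%, against 17.2%). Of the 12, library totals scaling and DESeq2 kept 12, the fit without the trend kept 6, and the fits without ArD_0h replicate 1, ArR_5h replicate 1 and ArR_5h replicate 2 kept 3, 7 and 7. The count called lower was 1, and it was 3 with the trend removed (2.31%, against 13.8% of all tested peaks). It was 1 to 3 when each library was left out, with 8.46% to 15.6% of all tested peaks called lower in those fits. The replicate block gave 20 higher (15.4%, against 14.7% of all tested peaks) and 2 lower (1.54%, against 13.6%). The 12 and the 1 were among them. Replicate numbers did not pair the libraries: deviations of same-numbered libraries from their group means correlated at -0.21, 0.00 and -0.15 for numbers 1, 2 and 3. The median log2 difference stayed above 0 under every alternative run, from 0.13 to 0.71 when each library was left out. Other gap limits, no widening of the interval, leaving out pairs with another gene over the gap or a shared gene, and a stricter overlap gave 9.30% to 10.6% called higher. With 3 libraries per group the permutation tests cannot go below p = 0.1, and with 1 left out below 0.2. Named peaks of lower level rest on few counts, which limits their precision.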

Other observations

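The genes of divergent pairs also had 1573 tested peaks elsewhere, along their bodies and beyond them. Of these, 201 (12.8%) were called higher in ArR_5h and 208 (13.2%) lower by edgeR, with a median log2 difference of -0.16, against 14.5% and 15.2% of all tested peaks and a median of -0.07. The members at the same genes had 9.23% and 0.769% called and a median of 0.48. The difference between the peaks at the pairs and the other peaks of the same genes was not tested. Genes of divergent pairs had a median length of 43053 bp, against 39982 bp over all listed genes.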
